A study of Mus musculus with 4 samples.

Results

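The genes described are those of endoplasmic reticulum (ER) protein folding and the unfolded protein response. They were taken by gene symbol from a list of 40 genes, and 39 of the 40 were among the 16142 genes of the deposited expression table. The remaining symbol, Ero1l, had no row, but the same gene was in the table under its current symbol Ero1a and is given beside the members without being counted among them.

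The study compared stimulated CD4+ T cells from wild-type (WT) B6 mice and from Cd4CreERT2LSL-R111Afl/fl mice, with 2 RNA-seq samples in each group. R111A is a form of Regnase-1, an RNA-degrading enzyme encoded by Zc3h12a, that the protease MALT1 cannot cleave. It was expressed together with EGFP from a CAG-driven cassette in the Rosa26 locus, in cells where tamoxifen (75 mg/kg, injected intraperitoneally for 5 days) had activated a Cre expressed from Cd4. Splenic CD4+ T cells were purified, sorted by FACS, and then received anti-CD3 (5 µg/mL) plus anti-CD28 (1 µg/mL) as a stimulus lasting 12 h. WT mice carried neither the Cre nor the transgene, so Cre activity and EGFP differ between the groups along with R111A and cannot be told apart from it. The labels do not make clear whether the WT mice of these samples also received tamoxifen, although the study describes tamoxifen-treated WT mice as a source of control cells in another assay. No age is given for these samples in particular. The study's general range is 6 to 12 weeks, with males and females included and exceptions named where they apply. Whether each sample came from a separate animal is not stated, so p-values measure only the spread between these samples.

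Proteins that enter the secretory pathway pass through the Sec61 channel into the ER, lose their signal peptide, receive glycans and are folded by chaperones, while those that fail to fold are returned to the cytosol for degradation. Unfolded protein activates the sensors IRE1, PERK and ATF6, which raise the transcription of chaperone genes or lower translation through phosphorylation of eIF2alpha. In T cells, activation brings a large increase in protein synthesis, and helper cells secrete cytokines through this pathway.

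Levels are given as FPKM, a read number divided by transcript length and library size, so that levels of different genes can be compared. Differences were tested with limma on log2(FPKM + 1), a scale that understates changes of genes with low values. A log2 fold change is R111A against WT, given ± its standard error (SE), and its p-value was adjusted over the 9831 genes whose mean reached 1 FPKM. A gene was called higher or lower at an adjusted p under 0.05, and calls that also reached a 2-fold change were counted separately. An exact two-sided permutation test of 2 against 2 samples cannot give a p below 0.333, so every p comes from the model across genes.

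The labels were checked against marker genes. Zc3h12a was at 17.0 and 15.7 FPKM in the WT samples and at 196 and 131 FPKM in the R111A samples. Cd4 was expressed in each sample, at 158 and 131 FPKM in WT against 70.7 and 51.4 FPKM in R111A, whereas Cd8a did not exceed 0.20 FPKM. The FPKM values summed to 801475 and 836143 in the WT samples and to 1053551 and 1012215 in the R111A samples. The number of reads is not known, but from the steps among low values WT replicate 1 appeared to hold 1.06 times as many reads as R111A replicate 1 and 1.18 times as many as R111A replicate 2.

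Most ER folding members and all 3 members that encode oligosaccharyl transferase subunits were lower in R111A cells, beside 32.1% of all genes tested. Outside the members, subunits of that enzyme were called in both directions. Lower too were 3 of 6 translocon members, and the calls of Sec61a1 and Sec61b did not hold at every setting. PERK, the BiP cochaperone Dnajb9 and the phosphatase subunit Ppp1r15a were higher, beside 21.2% of all genes. None of the 6 tested members of ER-associated degradation was called by limma, although 4 of them were called lower with TPM, a rescaling of each library to the same sum by which 51.8% of all genes were lower, and 2 had an unadjusted p under 0.05. Together the members summed to 4539 and 4522 FPKM in the WT samples and to 3004 and 3178 FPKM in the R111A samples. This was 0.566% and 0.541% of the summed FPKM of the WT libraries and 0.285% and 0.314% of that of the R111A libraries. A share also falls because the R111A libraries have larger sums. The further translocation and glycosylation genes summed to 3169 and 3330 FPKM in WT and to 3284 and 3328 FPKM in R111A. Their share was 0.395% and 0.398% in WT and 0.312% and 0.329% in R111A. In bulk RNA, fewer cells of a type and less RNA per cell cannot be told apart.

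**Figure D1:**
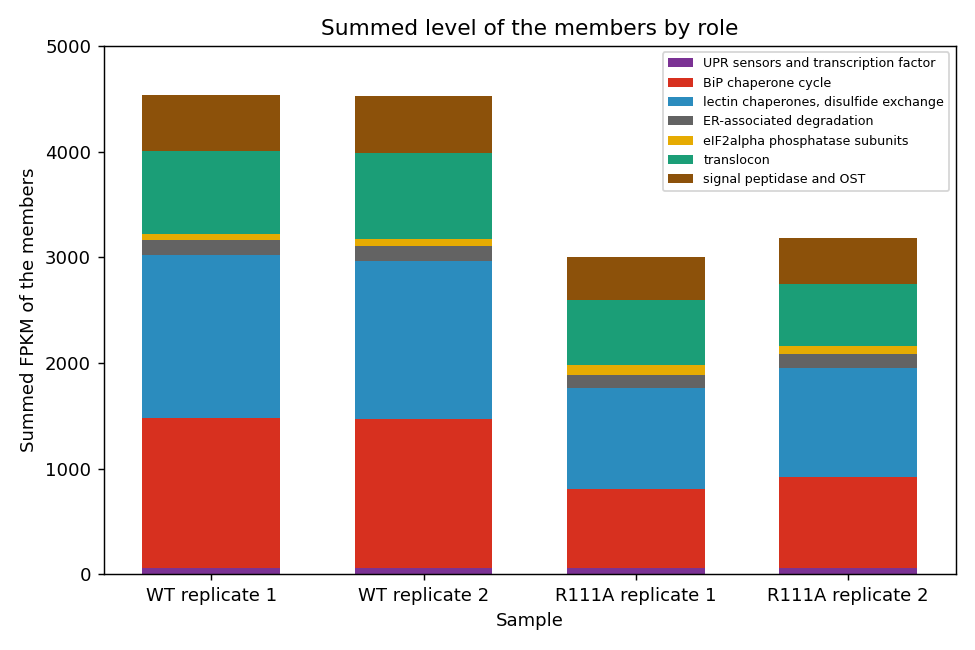
Summed FPKM of the 39 members in each of the 4 samples, with each bar divided by the role of the members (OST, oligosaccharyl transferase). The sums are 4539 and 4522 in the WT samples and 3004 and 3178 in the R111A samples, and the BiP chaperone cycle goes from 1412 and 1408 in WT to 749 and 861 in R111A.

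Of the 39 members, 38 passed the filter on low values, none of them through 1 group alone, and 20 of these (52.6%) were called lower in R111A, beside 32.1% of all genes tested. Called higher were 4 members (10.5%), beside 21.2% of all genes. With the 2-fold threshold, 4 members (10.5%) were lower and 3 (7.89%) higher, beside 8.34% and 8.52% of all genes, so that by this rule and at this setting the members were near the background in both directions. This reading depended on the setting. With TPM, 13 members (34.2%) were lower past 2-fold and 1 (2.63%) higher, beside 17.8% and 5.93% of all genes. Without R111A replicate 2, 7 members (18.4%) were lower past 2-fold, beside 8.99% of all genes. Lower past 2-fold were 2 members (5.26%) with median-of-ratios factors, beside 6.23% of all genes, and 2 with quantile normalization, beside 7.16%. With a pseudocount of 5 FPKM, 1 member (2.63%) was higher past 2-fold, beside 3.93% of all genes. Both R111A values lay below both WT values for 27 members (71.1%, beside 46.3% of all genes) and above them for 5 members (13.2%, beside 32.0%).

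The median log2 fold change was -0.41 over the 38 members and -0.12 over all genes tested. Rescaling by TPM moved the median of all genes by -0.30, and division by median-of-ratios factors moved it by 0.12. Relative to the median of all genes, the members' median was -0.29 as tested, -0.32 with TPM, -0.20 with quantile normalization and -0.28 with median-of-ratios factors. Over all genes, 39.9% of the calls were in the direction of higher values, against 20.8% with TPM and 51.0% with median-of-ratios factors. No called member changed sign under these 3 scalings, but 9 members that were not called did: Tram1 and Spcs1 with TPM, Creld2, Syvn1, Derl1, Derl2 and Spcs2 with both other scalings, and Dnajb11 and Ssr2 with quantile normalization alone.

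The 4 members called higher had means of 2.13 FPKM (Ern1), 7.09 FPKM (Eif2ak3), 16.3 FPKM (Dnajb9) and 42.4 FPKM (Ppp1r15a).

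**Figure D2:**
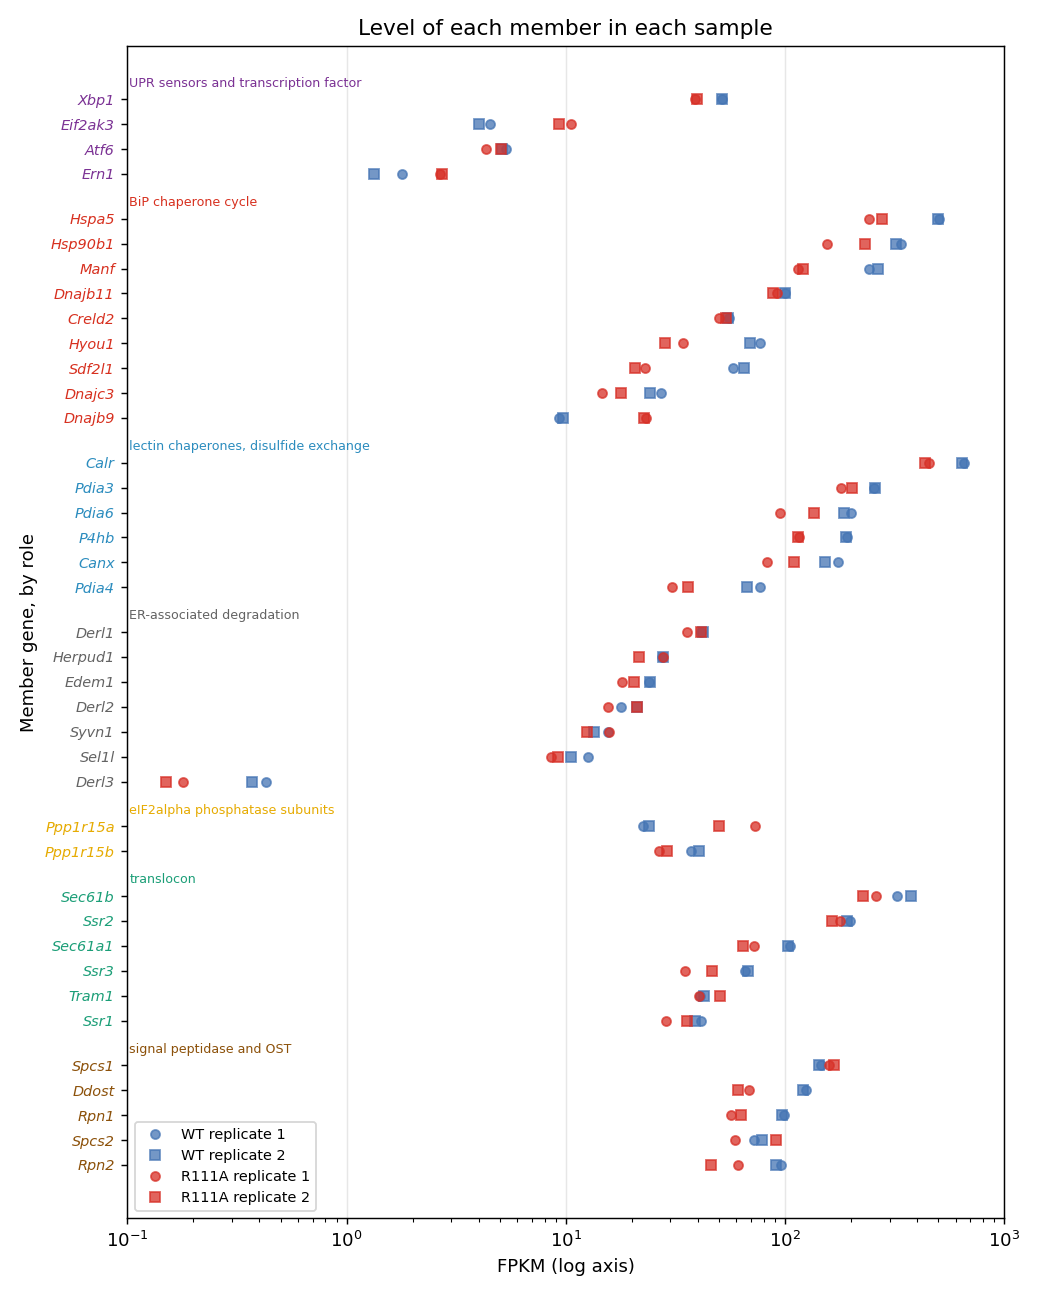
FPKM of each of the 39 members (rows, grouped by role and ordered by mean) in the 2 WT samples (blue) and the 2 R111A samples (red), on a log axis. Calr (mean 546 FPKM) and Hspa5 (mean 381 FPKM) are at the right, Derl3 is below 1 FPKM in each sample, and both red points lie above both blue points for 5 members, Ern1, Eif2ak3, Dnajb9, Ppp1r15a and Spcs1, of which Spcs1 was not called and changed sign with TPM.

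The sensors and the transcription factor Xbp1 did not move together. Eif2ak3, which encodes the eIF2alpha kinase PERK, was at 4.52 and 4.02 FPKM in the WT samples and at 10.6 and 9.28 FPKM in the R111A samples. Both R111A values were above both WT values, with a log2 fold change of 1.05 ± 0.15 (adjusted p = 0.00051, limma). Ern1, which encodes IRE1alpha, the kinase and endoribonuclease that splices Xbp1 mRNA, was at 1.79 and 1.33 FPKM in WT against 2.68 and 2.71 FPKM in R111A. The groups did not overlap, and the log2 fold change was 0.54 ± 0.15 (adjusted p = 0.016, limma). This call was lost with TPM (adjusted p = 0.12) and without WT replicate 2 (adjusted p = 0.21), and its adjusted p ranged from 0.0045 to 0.21 over the alternatives.

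Xbp1, the transcription factor made active by that splicing, was at 51.6 and 51.6 FPKM in WT against 39.0 and 39.5 FPKM in R111A. The replicates of each group were nearly equal and the groups were apart, with a log2 fold change of -0.38 ± 0.13 (adjusted p = 0.030, limma). The call for Xbp1 was lost with median-of-ratios factors (adjusted p = 0.12), with quantile normalization (adjusted p = 0.22) and without either WT sample (adjusted p = 0.29 for each), within a range of 0.00075 to 0.29 over the alternatives. An FPKM of the whole gene does not separate spliced from unspliced Xbp1 mRNA. Atf6, a membrane-bound factor that is released by proteolysis in the Golgi, was at 5.35 and 5.10 FPKM in WT against 4.34 and 5.07 FPKM in R111A. R111A replicate 2 lay just under the lower WT value, and Atf6 was not called (log2 fold change -0.13 ± 0.14, adjusted p = 0.48, limma). With TPM it was called lower (-0.41, beside a median of -0.42 over all genes), with an adjusted p of 0.044 in a range of 0.044 to 0.93 over the alternatives.

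In the BiP chaperone cycle, 6 of 9 members (66.7%) were lower and 1 (11.1%) higher, beside 32.1% and 21.2% of all genes, and the median log2 fold change was -0.80. Hspa5, which encodes BiP, the HSP70 of the ER, was at 505 and 498 FPKM in the WT samples and at 243 and 277 FPKM in the R111A samples. The R111A mean was 0.519 times the WT mean, a difference far outside the spread between replicates (log2 fold change -0.95 ± 0.13, adjusted p = 0.00042, limma). Hsp90b1, which encodes the HSP90 of the ER (GRP94), was at 338 and 322 FPKM in WT against 155 and 231 FPKM in R111A. Its R111A replicates differed more from each other than its WT replicates did, but both lay below WT (log2 fold change -0.80 ± 0.18, adjusted p = 0.0067, limma).

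Sdf2l1, a partner of the cochaperone ERdj3, had the largest decrease of all members. It was at 57.8 and 64.7 FPKM in WT against 23.0 and 20.7 FPKM in R111A. The WT mean was 2.81 times the R111A mean, with no overlap (log2 fold change -1.45 ± 0.14, adjusted p = 6.7e-05, limma). Hyou1, a nucleotide exchange factor of BiP, was at 77.3 and 69.6 FPKM in WT against 34.1 and 28.4 FPKM in R111A. Its groups were apart, with a log2 fold change of -1.21 ± 0.14 (adjusted p = 0.00022, limma). Manf, a small ER protein that binds BiP and can be secreted, was at 242 and 265 FPKM in WT against 114 and 120.5 FPKM in R111A. Here too both R111A samples were low, at -1.10 ± 0.12 on the log2 scale (adjusted p = 0.00017, limma).

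The J-domain cochaperones of BiP differed from one another. Dnajb9, which encodes ERdj4, was at 9.30 and 9.68 FPKM in WT against 23.3 and 22.7 FPKM in R111A. Its replicates were close in each group and its level was higher in both R111A samples (log2 fold change 1.19 ± 0.13, adjusted p = 0.00016, limma). The ratio of Dnajb9 to Hspa5, which division of a library by 1 factor leaves unchanged, was 0.0184 and 0.0194 in WT and 0.0961 and 0.0818 in R111A. Dnajc3, which encodes the cochaperone p58IPK, was lower (27.3 and 24.3 FPKM in WT against 14.6 and 17.9 FPKM in R111A, log2 fold change -0.64 ± 0.15), although its call was lost without WT replicate 1 (adjusted p = 0.13, the highest of its alternatives, the lowest being 0.0003). Dnajb11, which encodes ERdj3, was at 100.2 and 99.8 FPKM in WT against 91.7 and 88.5 FPKM in R111A and was not called, with a log2 fold change of -0.15 ± 0.12. Creld2, an ER-resident protein that can also be secreted, was not called either, at 55.8 and 55.1 FPKM in WT against 49.9 and 53.7 FPKM in R111A. Both were called lower with TPM, Dnajb11 at -0.48 (adjusted p = 0.0072, in a range of 0.0072 to 0.93) and Creld2 at -0.43 (adjusted p = 0.019, in a range of 0.019 to 0.84), beside a median of -0.42 over all genes.

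**Figure D3:**
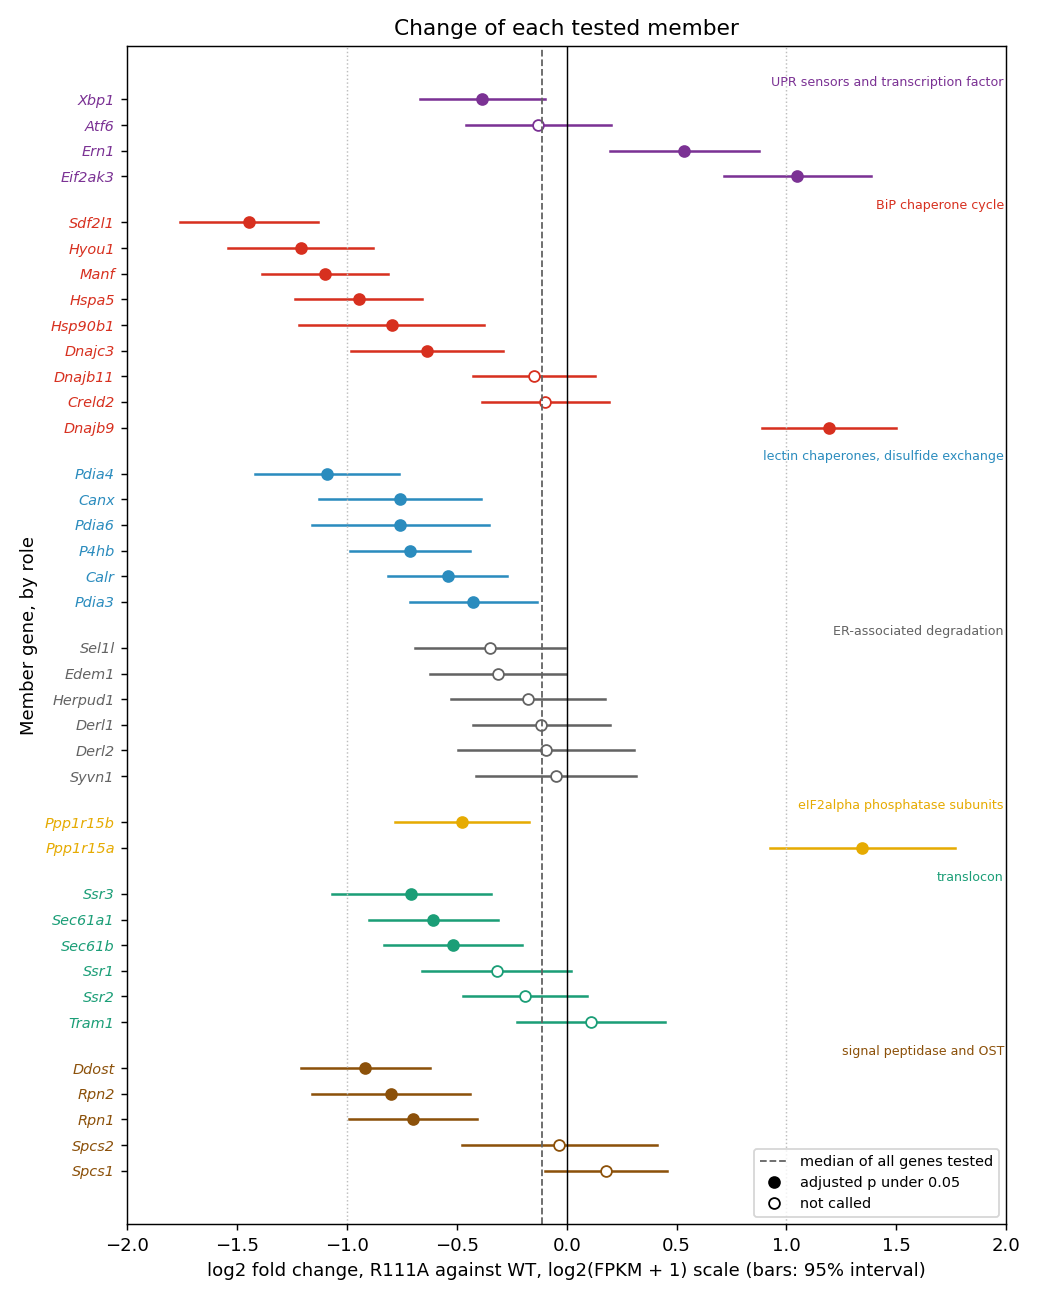
log2 fold change of R111A against WT on the log2(FPKM + 1) scale for the 38 tested members, by role, with 95% intervals from limma (bars), filled points for an adjusted p under 0.05, dotted lines at a 2-fold change and a dashed line at the median of all genes tested (-0.12). Dnajb9, Eif2ak3 and Ppp1r15a lie beyond 1, Sdf2l1, Hyou1, Manf and Pdia4 lie beyond -1, and the 6 tested members of ER-associated degradation are all open. The signs of the filled points were the same under TPM, median-of-ratios and quantile scaling.

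All 6 members of the lectin chaperones and disulfide exchange enzymes were called lower, beside 32.1% of all genes, with log2 fold changes from -1.09 to -0.42. Calr encodes calreticulin, a lectin that holds glycoproteins for folding, and had the highest level of all members. It was at 654 and 642 FPKM in WT against 452 and 437 FPKM in R111A. The difference was many times the gap between replicates (log2 fold change -0.54 ± 0.12, adjusted p = 0.0050, limma), and without WT replicate 1 its adjusted p was 0.061, the highest of a range that began at 5.8e-05. Canx, which encodes the membrane-bound lectin calnexin, was at 174 and 152 FPKM in WT against 83.1 and 110.2 FPKM in R111A, with a log2 fold change of -0.76 ± 0.16.

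Pdia4, a protein disulfide isomerase also known as ERp72, was at 76.8 and 67.2 FPKM in WT against 30.6 and 36.0 FPKM in R111A. As tested, it was the only member of this role past the 2-fold threshold, with both R111A samples low (log2 fold change -1.09 ± 0.14, adjusted p = 0.00038, limma). With TPM Canx (-1.09), Pdia6 (-1.09) and P4hb (-1.05) passed it too, beside a median of -0.42 over all genes. Pdia3, the isomerase ERp57 that works with the lectins, was at 255 and 257 FPKM in WT against 179.6 and 202 FPKM in R111A. Its groups were apart by less (log2 fold change -0.42 ± 0.13, adjusted p = 0.021, limma). The Pdia3 call was lost with median-of-ratios factors (adjusted p = 0.083), quantile normalization (0.23) and without WT replicate 1 (0.17) or 2 (0.19), and the range over its alternatives was 0.00036 to 0.23.

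Of the 2 other isomerases, P4hb had a log2 fold change of -0.71 ± 0.12 and Pdia6 one of -0.76 ± 0.18, and neither lost its call under any alternative. P4hb was at 191 and 190.0 FPKM in WT against 116 and 115 FPKM in R111A. Ero1a, the oxidase that recharges these isomerases and the gene listed as Ero1l, was at 28.4 and 27.7 FPKM in WT against 10.2 and 13.2 FPKM in R111A. Both R111A values were low, and the log2 fold change of Ero1a was -1.21 ± 0.16 (adjusted p = 0.00034, limma).

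The members of ER-associated degradation were not called in either direction by limma (0 of 6 tested), although 2 of them, Edem1 and Sel1l, had an unadjusted p under 0.05. Of 23 further ERAD genes described below, 6 (26.1%) were lower and 3 (13.0%) higher, beside 32.1% and 21.2% of all genes. Sel1l, the adaptor of the membrane ubiquitin ligase HRD1, had the largest difference. It was at 12.7 and 10.5 FPKM in WT against 8.52 and 9.18 FPKM in R111A. The groups did not overlap, but the gap was no larger than that between the WT samples (log2 fold change -0.35 ± 0.15, adjusted p = 0.077, limma). Edem1, a lectin-like protein that directs misfolded glycoproteins to degradation, was at 24.0 and 24.1 FPKM in WT against 18.1 and 20.4 FPKM in R111A (log2 fold change -0.31 ± 0.14, adjusted p = 0.082, limma).

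In the other members of this role the groups overlapped, apart from Derl3. Syvn1, which encodes HRD1 itself, was at 15.5 and 13.5 FPKM in WT against 15.7 and 12.4 FPKM in R111A. Herpud1, an ER membrane protein of the HRD1 complex, was at 27.6 and 27.9 FPKM in WT against 27.7 and 21.5 FPKM in R111A. The derlins, membrane proteins of the exit route, had log2 fold changes of -0.12 ± 0.14 (Derl1) and -0.10 ± 0.17 (Derl2). Derl3 was below the filter, at 0.43 and 0.37 FPKM in WT against 0.18 and 0.15 FPKM in R111A. With TPM, 4 members of this role were called lower (Herpud1, Edem1, Sel1l and Derl1), beside 51.8% of all genes, with log2 fold changes of -0.66 to -0.44 beside a median of -0.42. Without R111A replicate 1 Herpud1 was called lower (adjusted p = 0.018, in a range of 0.014 to 0.99), and without R111A replicate 2 Edem1 was (adjusted p = 0.013, in a range of 0.003 to 0.43).

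The regulatory subunits that bring protein phosphatase 1 to eIF2alpha, and so reverse the action of PERK, moved in opposite directions. Ppp1r15a, which encodes the stress-inducible subunit GADD34, was at 22.5 and 23.9 FPKM in the WT samples and at 73.3 and 49.8 FPKM in the R111A samples. The R111A replicates were unequal, and the lower of them was still above both WT values (log2 fold change 1.34 ± 0.18, adjusted p = 0.00048, limma). Ppp1r15b, which encodes the constitutive subunit CReP, was at 37.3 and 40.7 FPKM in WT against 26.6 and 28.9 FPKM in R111A. Its values were low in both R111A samples (log2 fold change -0.48 ± 0.13, adjusted p = 0.016, limma). The call for Ppp1r15b was lost when libraries were scaled by median-of-ratios factors or by quantiles (adjusted p = 0.058 for each), and without WT replicate 1 (0.13) or 2 (0.26), in a range of 0.00044 to 0.26. The ratio of Ppp1r15a to Ppp1r15b was 0.604 and 0.586 in WT and 2.76 and 1.72 in R111A, so that the more abundant subunit per length was Ppp1r15b in each WT sample and Ppp1r15a in each R111A sample.

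At the translocon, 3 of 6 members were called lower, beside 32.1% of all genes, and of these calls those of Sec61a1 and Sec61b did not hold at every setting. Ssr3, a subunit of the translocon-associated TRAP complex, was at 65.4 and 67.6 FPKM in WT against 35.0 and 46.4 FPKM in R111A. It had the largest change of this role, with the groups apart (log2 fold change -0.71 ± 0.16, adjusted p = 0.0056, limma). Sec61b, a small subunit of the Sec61 channel, was at 326 and 377 FPKM in WT against 262 and 228 FPKM in R111A. Although its replicates were spread in both groups, the groups did not overlap (log2 fold change -0.52 ± 0.14, adjusted p = 0.013, limma). The Sec61b call was lost with quantile normalization (adjusted p = 0.10) and without WT replicate 2 (0.18), in a range of 0.00012 to 0.18.

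Sec61a1, which forms the channel, had a log2 fold change of -0.61 ± 0.13 (adjusted p = 0.0043, limma), and its call was lost without WT replicate 1 (adjusted p = 0.07) or 2 (0.054), in a range of 7.5e-05 to 0.07. The TRAP subunits Ssr1 (-0.32 ± 0.15) and Ssr2 (-0.19 ± 0.12) were not called, but both were called lower with TPM, at -0.65 and -0.53. Without R111A replicate 2 Ssr1 was called lower (adjusted p = 0.0088, in a range of 0.0037 to 0.48), and without R111A replicate 1 Ssr2 was (adjusted p = 0.044, in a range of 0.0036 to 0.81). Tram1, a membrane protein beside the channel, was at 41.0 and 42.8 FPKM in WT against 40.5 and 50.7 FPKM in R111A. The groups of Tram1 overlapped, and it was called higher without R111A replicate 1 (adjusted p = 0.041, in a range of 0.041 to 0.85).

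All 3 members that encode oligosaccharyl transferase subunits were called lower, beside 32.1% of all genes, and neither member of the signal peptidase complex was. Ddost was at 125 and 121 FPKM in WT against 68.6 and 61.0 FPKM in R111A. This was the largest change of the role, with both R111A samples low (log2 fold change -0.92 ± 0.13, adjusted p = 0.00053, limma). Rpn1 (-0.70 ± 0.13) and Rpn2 (-0.80 ± 0.16) were lower on the same scale, and no alternative ended the call of any of the 3 subunits. These members are only part of both complexes. Among the further genes described below, the oligosaccharyl transferase subunits Stt3a, Stt3b and Tusc3 were called lower. Dad1 and Tmem258, of the same enzyme, were called higher, but not with TPM, and Ost4, Ostc, Krtcap2 and Magt1 were not called. Of the signal peptidase subunits there, Spcs3 and Sec11a were called lower, in calls that some settings lost, and Sec11c was not called. Spcs1, of the signal peptidase complex, was at 146 and 143 FPKM in WT against 159 and 168 FPKM in R111A. Its R111A values were above WT but the difference was not called (log2 fold change 0.18 ± 0.12, adjusted p = 0.25, limma), except with quantile normalization (adjusted p = 0.022, in a range of 0.022 to 0.67). Spcs2 was at 72.2 and 78.7 FPKM in WT against 59.4 and 91.1 FPKM in R111A, values that lay on either side of WT and gave the largest gap between R111A replicates of all members (0.61 in log2). Without R111A replicate 2 Spcs2 was called lower (adjusted p = 0.029, in a range of 0.029 to 0.95).

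**Figure D4:**
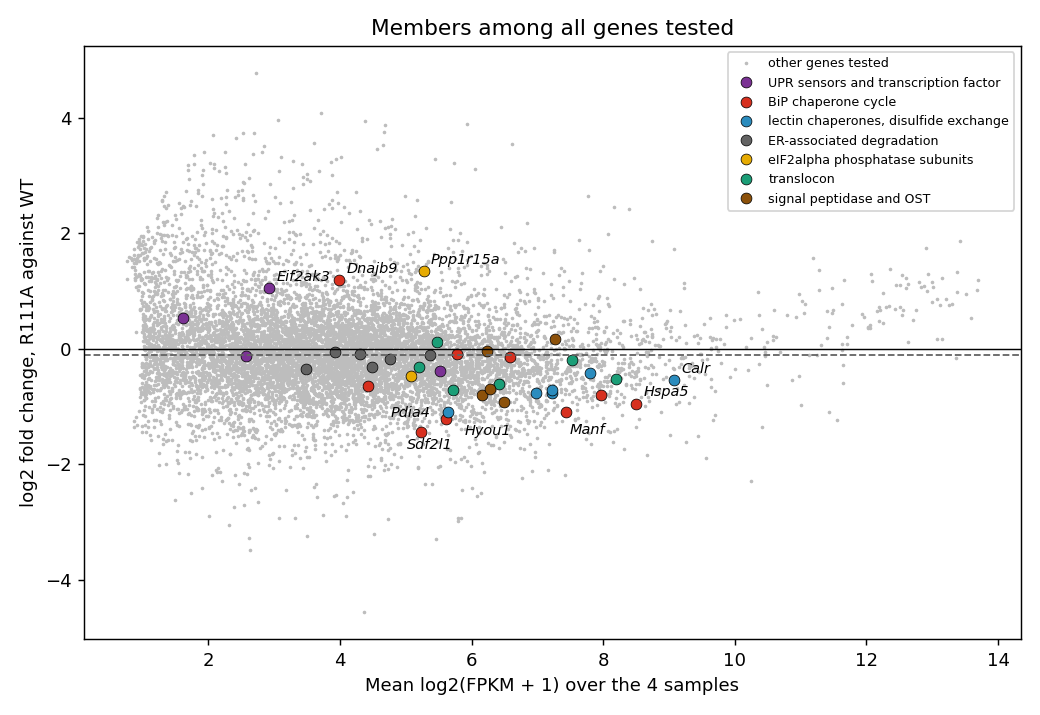
log2 fold change of R111A against WT (vertical axis) against the mean log2(FPKM + 1) over the 4 samples (horizontal axis) for the 9831 genes tested (grey), with the 38 members coloured by role and the median of all genes (-0.12) dashed. Most members lie below the dashed line, and Eif2ak3, Dnajb9 and Ppp1r15a lie above it.

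Many chaperone promoters hold the ER stress response element (ERSE), to which ATF6 and XBP1 can bind. It was searched on both strands as CCAAT, 9 bases of any kind and CCACG, in RefSeq promoters of GRCm38.p6 from 250 bases before to 50 bases after each gene's start. Promoters were given for 31 of the 39 members (33 promoters). An ERSE was in 9 of these 33 promoters (27.3%) and in 39 of all 32851 promoters (0.119%). The related ERSE-II (ATTGG, 1 base and CCACG) was in 2 member promoters (6.06%, beside 0.0365% of all), those of Dnajb11 and Herpud1. In the 250 bases before the start alone, ERSE-II was in 1 member promoter (3.03%, beside 0.0304% of all). The motif UPRE (TGACGTG), a site of XBP1 and ATF6, was in 1 member promoter (3.03%, beside 2.01%), that of Hspa5, and the motif CARE (TGATG, 1 base and AA), a form of the ATF4 site, in 1 (3.03%, beside 3.97%), that of Herpud1. No matches of different motifs overlapped in member promoters. A match is a description of the letters and does not show that a factor was bound.

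The ERSE matches of the 4 members with the largest change among those that hold ERSE or ERSE-II are printed to show the shared motif in genes that were lower. Capitals mark the 2 fixed parts, each run has 5 bases of context on either side, and each is read on the strand that carries the motif. The Hspa5 match is at chr2:34772020-34772048 (plus strand). Hsp90b1 has 2 matches, at chr10:86705633-86705661 (minus strand, that of the gene) and at chr10:86705528-86705556 (plus strand). The Canx match is at chr11:50325795-50325823 (minus strand) and the Pdia6 match at chr12:17266486-17266514 (plus strand).
Hspa5: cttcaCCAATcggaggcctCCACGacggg
Hsp90b1, far match: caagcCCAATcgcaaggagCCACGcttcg
Hsp90b1, near match: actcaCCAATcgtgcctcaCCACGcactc
Canx: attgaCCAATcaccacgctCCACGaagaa
Pdia6: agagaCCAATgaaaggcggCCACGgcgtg

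Of the 10 tested members with an ERSE or ERSE-II match, 6 were called lower and 0 higher, beside 32.1% and 21.2% of all genes, with log2 fold changes from -0.95 to -0.05 and a median of -0.59. Those called lower were Hspa5, Hsp90b1, Dnajc3, Calr, Canx and Pdia6, and the others were Dnajb11, Creld2, Herpud1 and Syvn1. Of the 20 tested members whose promoter had no such match, 10 were called lower and 4 higher, with a median of -0.37 and a range from -1.45 to 1.34. Eif2ak3, Dnajb9, Ppp1r15a and Ern1 were among the 20. The tested members for which no promoter was given are in neither group. Of these, Hyou1, Manf, Ppp1r15b and Sec61a1 were called lower, Hyou1 and Manf past 2-fold, and Atf6, Derl1, Ssr2 and Tram1 were not called. The difference between these groups was not tested.

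Other genes, most of them of the pathway, were read in 7 lists with no member in common with the set. The last list, of cytosolic and mitochondrial chaperones, lies outside the pathway and serves as a comparison. Each list is read beside the 32.1% of all genes that were lower and the 21.2% that were higher. At other settings these shares were 51.8% and 13.6% with TPM, 25.1% and 26.1% with median-of-ratios factors, and 26.7% and 23.7% by quantiles. Lower were 37.6% of all genes without R111A replicate 1, 38.6% without R111A replicate 2, 19.9% without WT replicate 1 and 19.7% without WT replicate 2. Among further ER folding enzymes, 12 of 26 tested genes (46.2%) were lower and 4 (15.4%) higher (Ero1b, Dnajc1, Sil1 and Selenof), with a median log2 fold change of -0.34. With TPM 14 (53.8%) were lower and 2 (7.69%) higher, beside 51.8% and 13.6% of all genes. With quantile normalization and with median-of-ratios factors alike, Txndc11, Tmx1, Erp29, Cnpy2, Uggt1 and Ganab lost their lower calls and Txndc12, Ppib and Cnpy3 were called higher, which left 6 lower (23.1%) and 7 higher (26.9%), near the shares of all genes. Without either WT sample 5 (19.2%) were lower, also near that share. The calls for Sil1 (adjusted p of 0.0089 to 0.71 over the alternatives) and Selenof (0.0052 to 0.40) were lost with TPM, with no filter and without WT replicate 1, that for Sil1 also without WT replicate 2 and that for Selenof also without R111A replicate 1. Mogs, the glucosidase that trims the first glucose of a glycan, was at 131 and 126 FPKM in WT against 61.7 and 51.5 FPKM in R111A (-1.17 ± 0.14, adjusted p = 0.0002, limma). Txndc5, an isomerase of the PDI family, had a log2 fold change of -0.90 ± 0.13. Dnajc1, a J-domain protein of the ER membrane, was higher, at 12.4 and 12.2 FPKM in WT against 23.4 and 31.3 FPKM in R111A (1.07 ± 0.16, adjusted p = 0.00081, limma).

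Of 26 further translocation and glycosylation genes, 11 (42.3%) were lower and 2 (7.69%) higher (Dad1 and Tmem258), and the median was -0.34. Of the 11, Tram2 passed the filter only through the WT samples, and 10 of the other 25 were lower. With TPM 19 (73.1%) were lower, beside 51.8% of all genes, and 0 higher. Srp72, Spcs3 and Sec11a lost their lower calls with median-of-ratios factors, when Sec61g, Sec62 and Ost4 were called higher, and with quantile normalization, when Sec61g and Ost4 were. Without WT replicate 2, the lower calls of these 3 genes, Sec61a2 and Stt3b were lost, which left 6. The calls for Dad1 and Tmem258 were lost with TPM, at adjusted p = 0.053 for Dad1 (in a range of 0.00012 to 0.053) and 0.80 for Tmem258 (in a range of 0.0091 to 0.80), and that for Tmem258 also with no filter and without either WT sample. Srpr, the receptor of the signal recognition particle, had a log2 fold change of -0.96 ± 0.13, and Ssr4, the remaining TRAP subunit, one of -0.89 ± 0.14. Srp54a, a subunit of the particle itself, was at -0.85 ± 0.18, but reads may be shared with its near-identical copies Srp54b and Srp54c, which had log2 fold changes of -0.60 and 0.44, so its value is uncertain. In ER export and retrieval, 5 of 21 genes (23.8%) were lower (Lman1, Sec13, Tmed2, Sec23b and Mcfd2) and 0 higher by limma (1 at an unadjusted p under 0.05), with a median of -0.22. Lman1, a cargo receptor for glycoproteins leaving the ER, was at 36.4 and 36.7 FPKM in WT against 10.4 and 12.0 FPKM in R111A. Its log2 fold change was below that of any member (-1.62 ± 0.14, adjusted p = 4.1e-05, limma). Sec13, of the COPII coat, was at -0.68 ± 0.12 and Tmed2, a p24 cargo protein, at -0.56 ± 0.15, and the Tmed2 call was lost with quantile normalization (adjusted p = 0.098) and without WT replicate 2 (0.17), in a range of 0.00023 to 0.17. The calls for Sec23b and Mcfd2 were lost with quantile normalization, with median-of-ratios factors and without either WT sample, that for Sec23b also with no filter and that for Mcfd2 also with the replicate block. The share that was lower was below that of all genes as tested, but with TPM 12 genes (57.1%) were lower, beside 51.8% of all genes, and without R111A replicate 1 or 2 it was 9 (42.9%), beside 37.6% and 38.6%. With quantile normalization 2 were lower and 1 higher. The 1 was Sec24c, a cargo-binding subunit of the COPII coat, which was also called higher with median-of-ratios factors, with no filter and without either R111A sample.

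Of 23 further ERAD genes, 6 (26.1%) were lower and 3 (13.0%) higher (Fam8a1, Selenos and Herpud2), with a median of -0.19. The lower calls of Nploc4 and Ube2g2 were lost with median-of-ratios factors, quantile normalization and without either WT sample, that of Nploc4 also with no filter, and that of Marchf6 without either WT sample. With median-of-ratios factors 5 were higher, Ubxn4 and Rnf185 among them, and 4 lower. The lower share was near that of all genes with TPM (12 genes, 52.2%, beside 51.8%) and without R111A replicate 1 (9 genes, 39.1%, beside 37.6%). The calls for Selenos (adjusted p of 0.00039 to 0.12 over the alternatives) and Herpud2 (0.0019 to 0.18) were lost with TPM and without WT replicate 1, and that for Herpud2 also without WT replicate 2. Fam8a1, a component of the HRD1 complex, was at 5.92 and 6.73 FPKM in WT against 14.7 and 18.6 FPKM in R111A (1.26 ± 0.16, adjusted p = 0.00031, limma). Vcp, the ATPase that extracts substrates from the membrane, was at 295 and 272 FPKM in WT against 170.2 and 148 FPKM in R111A (-0.83 ± 0.13, adjusted p = 0.001, limma). Rnf5, a membrane ubiquitin ligase, had a log2 fold change of -0.81 ± 0.16.

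Genes of the PERK and ATF4 branch had a median of -0.01 over 14 tested, with 4 (28.6%) higher and 3 (21.4%) lower. All 4 that were higher passed the 2-fold threshold, but Trib3 passed the filter only through the R111A samples, which leaves 3 of 13 genes without it. With TPM 4 were higher and 6 (42.9%) lower, beside 51.8% of all genes, with Atf4, Eif2s1 and Eif2ak1 added, and the list median was -0.33 beside -0.42 over all genes. Ddit3, which encodes CHOP, was at 16.4 and 14.7 FPKM in WT against 62.2 and 66.6 FPKM in R111A. Both R111A values were high, and their mean was 4.14 times the WT mean (log2 fold change 1.98 ± 0.13, adjusted p = 1.5e-05, limma). Ddit4, an inhibitor of mTORC1 signalling, was at 10.7 and 14.5 FPKM in WT against 38.9 and 36.5 FPKM in R111A (1.52 ± 0.16, adjusted p = 0.00013, limma). Sesn2, a leucine-binding stress protein, had a log2 fold change of 1.38 ± 0.17. Trib3, a pseudokinase induced by ATF4 and CHOP that was named after its values were seen, was at 0.96 and 0.91 FPKM in WT against 6.02 and 4.41 FPKM in R111A. Atf4 itself was at 265 and 268 FPKM in WT against 266 and 259 FPKM in R111A and was not called (-0.02 ± 0.12). With TPM it was called lower, at -0.36 (adjusted p = 0.026, in a range of 0.026 to 0.97), beside a median of -0.42 over all genes. The translation of its mRNA, which these data do not measure, is the usual point of control. Called lower were Asns, Cebpb and Eif2ak4. Asns, the asparagine synthetase gene and a known ATF4 target, was at 5.36 and 5.08 FPKM in WT against 1.23 and 1.56 FPKM in R111A. The calls for Cebpb and Eif2ak4 were lost without either WT sample, and that for Cebpb also with median-of-ratios factors and with no filter. With the filter at 5 FPKM, which removes Asns, Trib3 and Cebpb, 4 genes of this list were called in all.

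Of 17 further UPR regulators, 6 (35.3%) were higher (Traf2, Tmbim6, Wfs1, Creb3l2, Crebrf and Nck1) and 2 (11.8%) lower (Atf6b and Mbtps2), with a median of 0.15. With TPM 3 (17.6%) were higher and 5 (29.4%) lower, beside 13.6% and 51.8% of all genes, with Creb3, Rtcb and Ptpn1 added to the lower ones, and the median turned to -0.17, beside -0.42 over all genes. The calls for Tmbim6 (adjusted p of 0.0015 to 0.30 over the alternatives) and Creb3l2 (0.002 to 0.15) were lost with TPM, with no filter and without either WT sample, that for Creb3l2 also with quantile normalization and without R111A replicate 1. The Atf6b call was lost with median-of-ratios factors, quantile normalization and no filter, and without either WT sample. Crebrf, which promotes the degradation of the factor CREB3, was at 3.83 and 3.55 FPKM in WT against 10.4 and 14.7 FPKM in R111A (1.52 ± 0.18, adjusted p = 0.0002, limma). Traf2, an adaptor that active IRE1 recruits, was at 20.1 and 22.3 FPKM in WT against 55.3 and 53.7 FPKM in R111A (1.32 ± 0.13, adjusted p = 8.6e-05, limma). The adaptor Nck1 had a log2 fold change of 0.53 ± 0.18 (adjusted p = 0.039, limma), and this call was lost with TPM (0.35), with no filter (0.11) and without WT replicate 1 (0.094), WT replicate 2 (0.21) or R111A replicate 2 (0.069), in a range of 0.0024 to 0.35. With no filter 4 genes of this list were called, and with the filter at 5 FPKM 5. Of the 4 called with no filter, 3 (17.6% of the list) were higher, near the 17.2% of all genes at that setting.

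Chaperones outside the ER were also lower, with 11 of 16 cytosolic and mitochondrial chaperone genes (68.8%) called lower and a median of -0.76. Hspa8, the constitutive cytosolic HSP70, was at 4150 and 3965 FPKM in WT against 1870 and 1922 FPKM in R111A (-1.10 ± 0.12, adjusted p = 0.00014, limma). Hspd1, the mitochondrial HSP60, was at 933 and 800 FPKM in WT against 287 and 327 FPKM in R111A (-1.49 ± 0.14, adjusted p = 6e-05, limma), and Hsp90ab1 had a log2 fold change of -0.97 ± 0.14. The 2 genes of this list that were higher, Hspa1a and Hspa1b, are near-identical copies whose reads may be shared. Both passed the filter only through the R111A samples, and neither exceeded 6.43 FPKM in any sample.

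**Figure D5:**
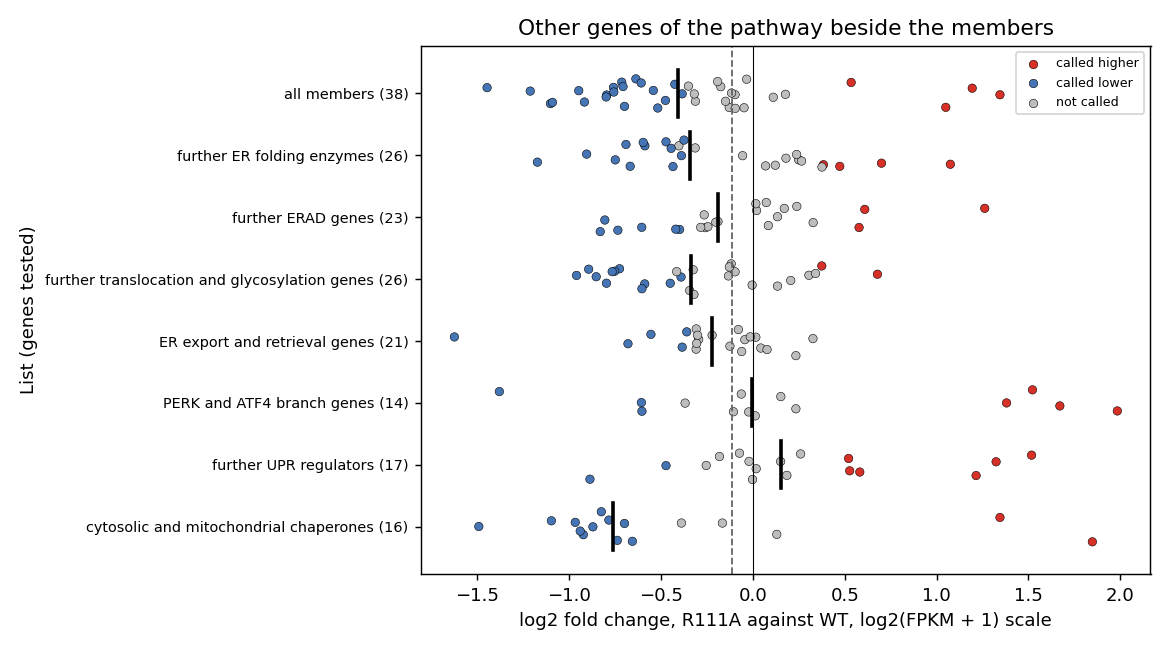
log2 fold change of R111A against WT on the log2(FPKM + 1) scale for the tested genes of each list (points, red for called higher, blue for called lower, grey for not called; vertical jitter only separates points), with the list median (black bar) and the median of all genes tested (dashed). The medians run from -0.76 for cytosolic and mitochondrial chaperones to 0.15 for further UPR regulators, with the members at -0.41.

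Markers of other cells moved with the groups, although CD4+ T cells had been purified by bead depletion of other cells and then sorted. For mice with a GFP reporter the study's sorting method first gates GFP+ cells, and whether that gate was used for these R111A samples is not stated. Plasma cells are known for a large ER, and 4 of their 6 listed markers were in the table. They summed to 0.74 and 0.57 FPKM in WT against 8.76 and 12.9 FPKM in R111A. Jchain was the most abundant, at 6.86 and 10.9 FPKM in R111A, while the defining markers Sdc1 (at most 0.41 FPKM) and Tnfrsf17 (0 in each sample) were at or near 0. The remaining one, Mzb1, was at 0.28 and 0.19 FPKM in WT against 1.73 and 1.53 FPKM in R111A. The 6 B cell markers used summed to 1.76 and 0.81 FPKM in WT against 4.78 and 4.39 FPKM in R111A, with Cd79a the most abundant and Ms4a1 and Pax5 at most 0.23 FPKM in each sample. The 8 myeloid markers summed to 0.68 and 0.67 FPKM in WT against 7.12 and 4.67 FPKM in R111A, led by Lyz2, with S100a9 at 0. The 4 NK cell markers summed to 1.93 and 1.22 FPKM in WT against 19.2 and 18.2 FPKM in R111A, led by Klrd1, with Ncr1 and Klrb1c at most 0.30 FPKM. Eomes, the remaining NK marker, was at 0.88 and 0.80 FPKM in WT against 6.68 and 4.32 FPKM in R111A. The 6 erythroid markers summed to 0.66 and 0.70 FPKM in WT against 12.9 and 13.0 FPKM in R111A, nearly all of it Hba-a1, with Hbb-bs and Hba-a2 at 0. Their part in the results was not tested.

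Among T cell markers, the 9 CD4+ T cell markers summed to 2172 and 2158 FPKM in WT against 1754 and 1608 FPKM in R111A, with Cd3g the most abundant. By limma, 5 of the 9 (55.6%) were lower (Cd4, Cd3g, Cd5, Lck and Thy1), beside 32.1% of all genes. Only Cd3d (11.1%) was higher, beside 21.2%. Under TPM, 8 (88.9%) were lower and 0 higher, beside 51.8% and 13.6% of all genes. Scaled by quantiles, 3 (33.3%) were lower, beside 26.7% of all genes. The lower count was also 3 when median-of-ratios factors were used, beside 25.1%. The calls for Cd5 (adjusted p of 0.00064 to 0.35 over the alternatives) and Lck (0.00048 to 0.40) were lost with median-of-ratios factors, quantile normalization, no filter, either other form of eBayes and without either WT sample or R111A replicate 2, and that for Cd5 also with either other pseudocount. The Cd3d call (0.0037 to 0.81) was lost with TPM and without either WT sample. The 2 CD8+ T cell markers summed to 7.31 and 6.76 FPKM in WT against 3.88 and 4.46 FPKM in R111A, mostly Cd8b1. The 4 Treg markers summed to 159 and 152 FPKM in WT against 138 and 139 FPKM in R111A, mostly Il2ra, and Foxp3 was at 11.3 and 8.78 FPKM in WT against 2.86 and 1.86 FPKM in R111A. Ikzf4 went the other way and was called higher, at 3.33 and 3.09 FPKM in WT against 5.95 and 4.29 FPKM in R111A (adjusted p = 0.027, limma), a call that was lost with TPM (adjusted p = 0.20, in a range of 0.0039 to 0.20), with no filter and without either WT sample. Whether a different share of T cell subsets took part in the results was not tested.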

How the data were processed

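Per the labels and the study's methods, the authors aligned polyA RNA-seq reads to mm10 with Bowtie2 (2.4.4), estimated expression with RSEM (1.2.28) and deposited FPKM values for 16142 genes (16107 with an ID in RefSeq). They called genes with DESeq2 on counts, which were not used here. The test was limma (3.58.1, R 4.3.3; lmFit and trended eBayes) on log2(FPKM + 1) for genes whose mean reached 1 FPKM, with p-values adjusted by Benjamini-Hochberg, and it was first tried on simulated data. Tables and plots were made in python 3.11.15 with numpy 2.4.6, pandas 2.3.3 and matplotlib 3.10.9. Members and lists were chosen with earlier results of these data known. Full values were given for members past 2-fold and the adjusted p, the 5 with the highest mean, the sensors with Xbp1, the phosphatase subunits and the largest change of each role. From each list came up to 3 genes with the largest change among those called, whose mean reached 5 FPKM and whose groups did not overlap. Other genes were named after their values were seen. Alternatives were pseudocounts of 0.1 and 5 FPKM, no filter or one at 5 FPKM, quantile normalization, TPM, median-of-ratios factors, a block for the replicate number, eBayes without trend or robust, leaving out each sample, and a promoter window of the 250 bases before the start. C-terminal retrieval signals were planned but not analysed here. 1 marker gene is not reported here.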

Additional observations from a re-analysis of the deposited data

How the results depend on the processing

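Of the 59 genes that are tested members or were taken from the lists by the stated rule, 0 changed sign with a call under any alternative, and 781 of 824 values kept their side of the threshold, 27 (of 10 genes) lost a call and 16 (of 12 genes) gained one. With TPM, all genes called became 1335 higher and 5096 lower, and 1749 lower past 2-fold. Members past 2-fold became 1 higher and 13 lower. Called were 4 members of ER-associated degradation, 5 of the translocon and 12 ER export and retrieval genes. All the lists together had 12 higher and 81 lower, against 21 and 50 as tested. This total includes ER export and retrieval and the chaperones outside the ER. It was 31 and 35 with median-of-ratios factors and 28 and 35 with quantile normalization. TPM moves the median of all genes by -0.30. Scaling by quantiles or by median-of-ratios factors left 2 members lower past 2-fold and 1 called phosphatase subunit, and with quantile normalization ER export and retrieval genes were 3. With a pseudocount of 5 FPKM, which shrinks fold changes, 1 member was higher past 2-fold, and all genes past it were 386 higher and 402 lower. With the filter at 5 FPKM, which leaves fewer genes, 521 genes were higher past 2-fold, and called genes of the PERK and ATF4 branch were 4 and UPR regulators 5. With no filter, 1 member of ER-associated degradation was called, Derl3, which is below the filter and was tested only at this setting. UPR regulators called with no filter were 4, and the cause of that count was not tested. The shorter promoter window left 1 member promoter with ERSE-II. Leaving out each sample in turn leaves 1 sample in a group, which is assumed to vary like the other group. Lower calls over all genes ran from 1937 (without WT replicate 2) to 3790 (without R111A replicate 2) and were 1957 without WT replicate 1. Members lower past 2-fold ran from 3 to 7, the 7 without R111A replicate 2. Called members ran from 1 to 3 for the sensors and Xbp1 (1 without WT replicate 2), 0 to 1 for ER-associated degradation (1 without either R111A sample), 1 to 2 for the phosphatase subunits (1 without either WT sample) and 1 to 5 for the translocon (1 without WT replicate 2, 5 without R111A replicate 1). Called genes ran from 7 to 20 for further folding enzymes, 4 to 13 for further ERAD genes, 7 to 17 for translocation and glycosylation, 2 to 11 for ER export and retrieval and 4 to 9 for UPR regulators, and over the lists together from 13 to 27 higher and from 29 to 63 lower. The low ends came without a WT sample, the high ends without an R111A sample, and the shares of all genes called moved the same way. In these fits a gene's own spread comes only from the group that keeps both samples. Over the 38 members the median gap between replicates was 0.062 in log2 for WT and 0.177 for R111A. How far this decides which calls were lost or gained was not tested. Same-numbered samples deviated together only weakly (r = 0.111 across 9831 genes, which are not independent replicates), and the labels name no shared batch, so the numbers do not pair the samples. With the replicate number as a block, 4 members were higher and 20 lower, and all genes called were 2236 higher and 3358 lower. Without counts, the precision that depth gives cannot be stated, and with 2 samples a group a difference that was not called is not shown to be absent.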
